A study of Mus musculus with 16 samples.

Results

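The TNF superfamily ligands and receptors were followed in mouse mast cells that were activated, treated with a glucocorticoid, or both, with and without the phosphatase PEP. The 10 genes were chosen by name: the ligands Tnf, Lta, Ltb, Tnfsf8, Tnfsf9, Tnfsf11 and Tnfsf14, and the receptors Tnfrsf1b, Tnfrsf9 and Tnfrsf4. They are 10 of the 39179 genes in the count files, found through their Ensembl identifiers. Bone marrow derived mast cells (BMMCs) were grown for 4 weeks with stem cell factor and IL3 from the marrow of male C57BL/6 mice aged 8 to 10 weeks. PEP+/+ cells were wild type, and PEP-/- cells came from mice without PEP, the PEST-domain-enriched tyrosine phosphatase encoded by Ptpn22. All cells were sensitized with IgE for 3 h, at 0.05 µg/ml by the labels, while the study's text states a higher concentration. They received nothing else (IgE), the antigen DNP at 200 ng/ml for 1 h (IgE DNP, activated cells), dexamethasone at 100 nM for 8 h, which the labels list ahead of IgE (IgE DEX), or both agents (IgE DNP DEX). The 2 genotypes and 4 treatments made 8 conditions of 2 samples each, 16 in all. The study calls the samples of a condition biological replicates. How many mice or cultures stood behind them is not given in the sources used here, so the p-values measure the spread between these samples.

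TNF superfamily ligands are made as membrane proteins, several of which are cut free, and they act as trimers on receptors of the matching receptor family. The receptors carry no enzyme of their own. They recruit TRAF adaptors and, in some cases, death domain proteins, and through these reach the NF-kB transcription factors and the MAP kinases. Mast cells are known for the fast production of TNF after their IgE receptor is crosslinked, and glucocorticoids such as dexamethasone are known to repress many genes of inflammation. LIGHT, the product of Tnfsf14, binds the lymphotoxin beta receptor and HVEM. Tnfsf9 encodes the ligand of CD137, which is itself the product of Tnfrsf9. Tnfsf8 encodes the ligand of CD30, Tnfsf11 encodes RANKL, Lta and Ltb encode the lymphotoxins, Tnfrsf1b encodes TNF receptor type 2 and Tnfrsf4 encodes OX40.

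The samples held 8612531 to 22143526 counted reads, with a median of 12814043.5. Ptpn22, the targeted gene, lay at 11.3 to 175 CPM (counts per 1000000 counted reads, after scaling of the libraries) in the 8 PEP+/+ samples and at 0 to 3.03 CPM in the 8 PEP-/- samples. The glucocorticoid targets Tsc22d3 and Fkbp5 were higher in every sample with DEX than in any sample without it. Of 10 mast cell markers, Cpa3, Fcer1a and Kit were abundant, and Mcpt4 was low at 4.56 to 18.5 CPM. Among the defining markers of other cells, Cd3e, Cd3g, Ms4a1, C1qa and Epx had no read in any sample, but other members of those lists did. The 6 macrophage or monocyte markers summed to 5.63 to 14.3 CPM, led by Lyz2 (3.12 to 11.01 CPM) and Adgre1, with medians of 9.23 in PEP+/+ and 12.9 CPM in PEP-/- samples. The 3 eosinophil markers, nearly all Siglecf, summed to 0.174 to 2.09 CPM after IgE and to 2.81 to 7.79 CPM after IgE DNP, with medians of 1.4 in PEP+/+ and 3.52 CPM in PEP-/- samples. The T cell, B cell, neutrophil and erythroid lists summed to at most 0.286, 0.605, 2.35 and 0.82 CPM. The 3 basophil markers (Mcpt8, Prss34 and Cd200r3, the last also known from mast cells) all had reads, and their summed level moved with treatment: 539 to 623 CPM with IgE alone, 750 to 882 with DNP, 228 to 393 with DEX and 431 to 479 with both agents. The summed level of the 3 dendritic cell markers, most of it Itgax, was 4.78 to 17.6 CPM without DEX and 1.17 to 7.62 CPM with it. The part of these lists in the results below was not tested. Replicate 1 carries a numbered title in every condition and replicate 2 a lettered title. The share of uniquely aligned reads outside annotated genes was 6.34 to 10.5% in numbered and 11.8 to 16% in lettered samples. Tnfrsf4 was higher in the lettered sample in 8 of 8 conditions, by 2.57 to 8.33 times. Tnfsf8 and Tnfrsf1b were higher in the numbered sample in 8 of 8 conditions, by 1.24 to 2.48 times and 1.02 to 1.84 times. Because same-numbered samples deviated together, a fit with the replicate number as a block is given wherever it changed the call of one of the 10 genes, and its counts are given for the gene lists.

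The proximal promoters of Tnf, Tnfsf14 and Tnfrsf9 are printed because these genes responded most to DNP, and that of Ltb because it did not pass the test for DNP and holds a match to the kB consensus bound by NF-kB. Each is the 250 bases before a RefSeq transcript start in GRCm38.p6, written 5′ to 3′ along the gene, with every motif match in capitals. The motifs were searched on both strands: the kB consensus, AP-1 (TGANTCA), the NFAT core (GGAAA, which reads TTTCC on the other strand and can lie within a kB match), the glucocorticoid response element (ACANNNTGT), the cyclic AMP response element (TGACGTCA) and the TATA box (TATAAA). Tnf lies on the minus strand (chr17:35202008-35202257), Tnfsf14 on the minus strand (chr17:57194182-57194431), Tnfrsf9 on the plus strand (chr4:150927749-150927998, the second of its 2 windows) and Ltb on the plus strand (chr17:35194257-35194506).
Tnf: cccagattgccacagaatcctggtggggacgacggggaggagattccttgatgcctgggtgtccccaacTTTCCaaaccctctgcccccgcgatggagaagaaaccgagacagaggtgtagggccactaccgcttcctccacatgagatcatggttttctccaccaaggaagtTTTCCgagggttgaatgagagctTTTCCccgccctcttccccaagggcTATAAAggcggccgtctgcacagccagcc
Tnfsf14: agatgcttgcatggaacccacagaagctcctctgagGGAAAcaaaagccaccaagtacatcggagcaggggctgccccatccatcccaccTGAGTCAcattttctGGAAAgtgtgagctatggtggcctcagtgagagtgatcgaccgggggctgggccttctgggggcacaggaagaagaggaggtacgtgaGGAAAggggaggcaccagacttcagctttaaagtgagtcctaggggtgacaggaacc
Tnfrsf9: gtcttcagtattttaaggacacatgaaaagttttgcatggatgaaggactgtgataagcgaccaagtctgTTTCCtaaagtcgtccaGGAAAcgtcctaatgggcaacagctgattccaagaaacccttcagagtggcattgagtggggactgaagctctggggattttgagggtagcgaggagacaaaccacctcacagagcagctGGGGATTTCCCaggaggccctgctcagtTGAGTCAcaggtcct
Ltb: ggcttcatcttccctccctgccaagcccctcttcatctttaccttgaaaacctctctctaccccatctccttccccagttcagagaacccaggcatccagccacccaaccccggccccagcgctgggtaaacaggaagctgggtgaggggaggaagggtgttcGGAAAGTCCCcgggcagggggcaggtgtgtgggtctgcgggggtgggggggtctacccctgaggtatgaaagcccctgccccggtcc
Tnf held the TATA box 29 to 24 bases before its start and 3 NFAT cores. Tnfsf14 held an AP-1 match 160 to 154 bases before its start and 3 NFAT cores. The printed window of Tnfrsf9 held 2 overlapping kB matches 43 to 33 bases before its start and an AP-1 match 15 to 9 bases before it, with 3 NFAT cores of which 1 lies inside the kB matches. The first window of Tnfrsf9, which is not printed, held 2 NFAT cores and no kB or AP-1 match. The single kB match of Ltb lay 87 to 78 bases before its start. Windows were found for 9 of the 10 genes (10 windows, none for Tnfsf9), of which 2 held a kB match, 2 an AP-1 match, 9 an NFAT core, 3 a TATA box and 0 a glucocorticoid or cyclic AMP response element. Among all 32851 promoter windows of the table, 7.25% held a kB match, 6.75% AP-1, 55.6% an NFAT core, 12.4% a TATA box, 5.84% the glucocorticoid element and 1.55% the cyclic AMP element. A match is only a run of letters in this window, and no binding was measured in these samples.

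**Figure D1:**
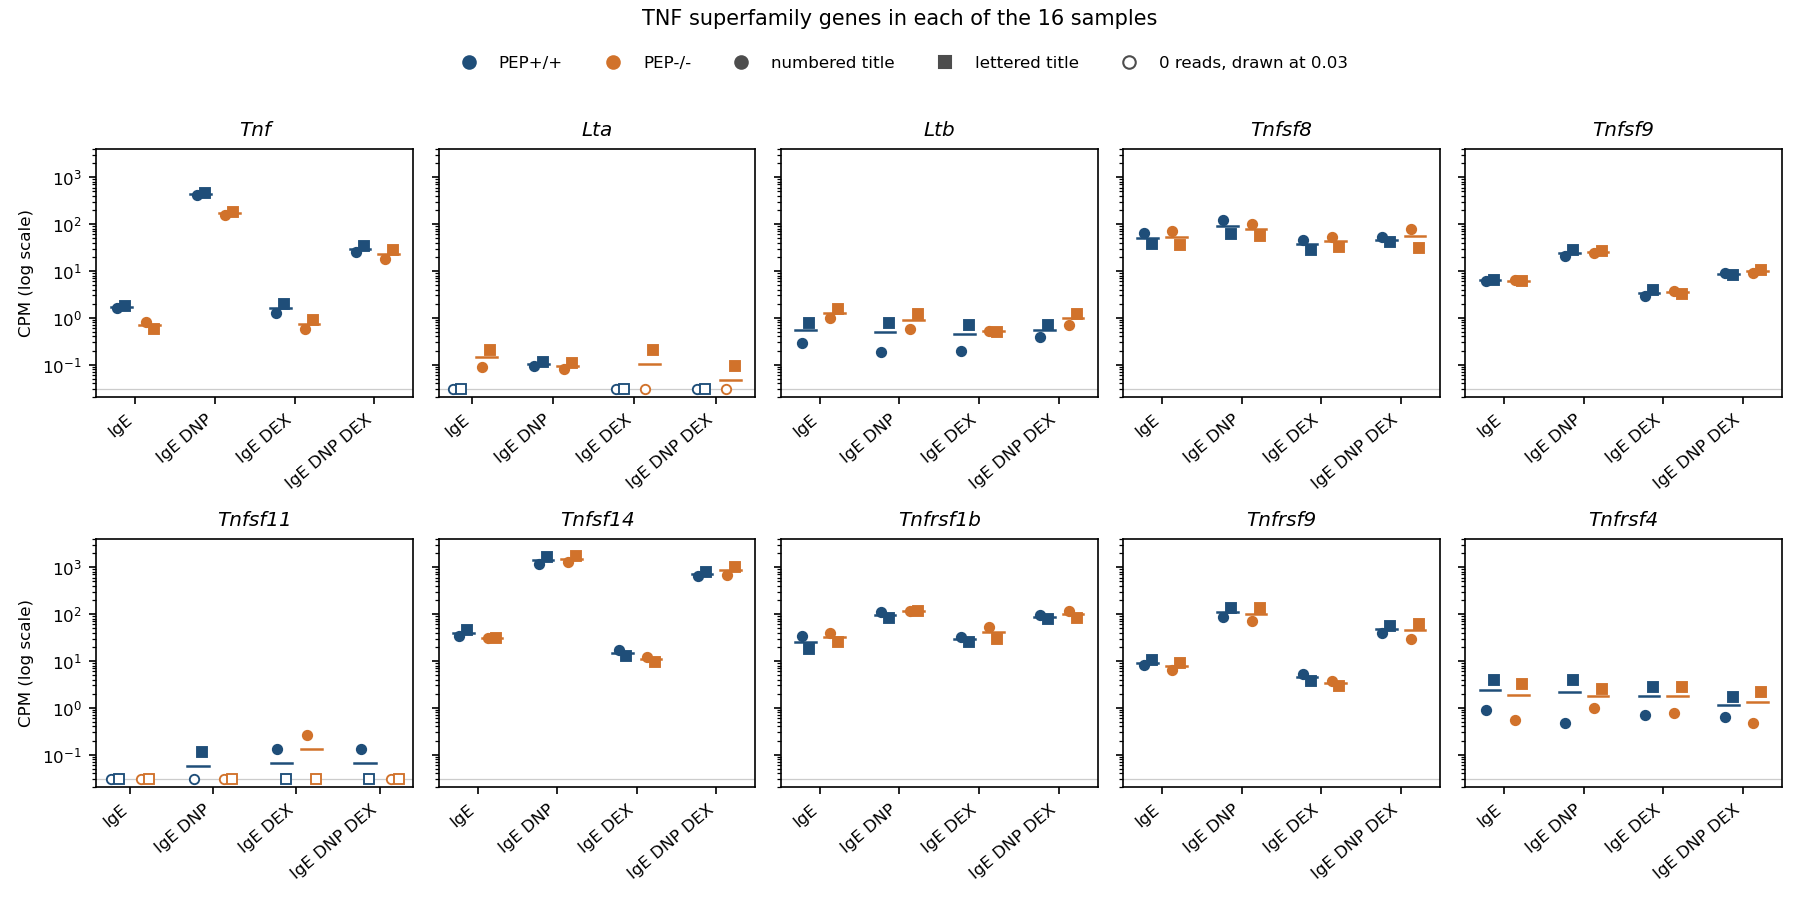
Level of each of the 10 genes in each of the 16 samples, in CPM on a log axis, by treatment and genotype. Points are samples, bars the mean of the 2 samples of a condition, circles and squares the numbered and lettered titles, and open points samples with 0 reads. Tnf after IgE DNP spans 156 to 464 CPM with the PEP-/- samples below the PEP+/+ samples, while Tnfsf14 spans 1175 to 1753 CPM with the genotypes mixed.

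Per kilobase of exon, Tnfsf14 led the 7 chosen ligands in activated cells. After IgE DNP it made up 67.3 to 86.5% (median 78.3%) of the summed CPM per kilobase of the 7 ligands, and Tnf 10.3 to 27.6% (median 17.4%). After IgE DNP DEX the share of Tnfsf14 was 90.7 to 94.1% and that of Tnf 2.61 to 4.30%. In cells with IgE alone, Tnfsf14 (16.6 to 24.4 CPM per kilobase) and Tnfsf8 (9.44 to 18.5) led these 7 ligands, and Tnf lay at 0.345 to 1.11. Among the 3 receptors, Tnfrsf1b led after IgE with a median share of 62.5%, and after IgE DNP Tnfrsf9 reached a median of 55.7% against 42.8% for Tnfrsf1b. The shares of those 2 receptors overlapped between samples after IgE DNP, at 44.9 to 67.8% and 28.3 to 53.9%.

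DNP raised 5 of the 10 genes over both genotypes: Tnf, Tnfsf14, Tnfrsf9, Tnfsf9 and Tnfrsf1b. Of all 13305 genes that passed the filter on low counts, 9.07% were called higher and 7.58% lower in the same comparison, at an adjusted p under 0.05 in edgeR's quasi-likelihood test. The median log2 fold change of the 8 of these 10 genes that passed the filter was 1.92, and that of all genes was -0.0007. Lta and Tnfsf11 did not pass. In each genotype alone the same 5 genes were called higher, where 4.01% (PEP+/+) and 4.69% (PEP-/-) of all tested genes were.

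Tnf rose from a near absence to a high level. It lay at 1.62 and 1.82 CPM in PEP+/+ and at 0.820 and 0.566 CPM in PEP-/- cells after IgE, from 9 to 22 reads per sample. After IgE DNP it lay at 428 and 464 CPM in PEP+/+ and at 156 and 185 CPM in PEP-/- cells. The treatments did not overlap. The log2 fold change was 7.99 ± 0.24 (SE), 255-fold (edgeR adjusted p = 4.66e-08), with 8.01 ± 0.31 in PEP+/+ and 7.97 ± 0.36 in PEP-/- cells. Within a genotype and replicate number, the ratio ran from 190 to 327.

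Tnfsf14, the gene of LIGHT, rose from a measurable level to the highest of the 10 genes per kilobase of exon. Its values were 34.8 and 45.0 CPM (PEP+/+) and 30.6 and 31.2 CPM (PEP-/-) after IgE, and 1175 and 1659 CPM and 1267 and 1753 CPM after IgE DNP. The genotypes interleaved after IgE DNP. The log2 fold change by DNP was 5.38 ± 0.19, 41.7-fold (edgeR adjusted p = 1.42e-07).

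The receptor gene Tnfrsf9 and its ligand gene Tnfsf9 both rose. Tnfrsf9 went from 8.08 and 10.2 CPM to 85.1 and 138 CPM in PEP+/+ cells, and from 6.37 and 8.95 CPM to 69.9 and 133 CPM in PEP-/- cells. Its log2 fold change was 3.66 ± 0.29, 12.7-fold (edgeR adjusted p = 1.70e-05). The lettered sample was the higher of the pair in all 4 of these conditions. Tnfsf9 lay at 6.12 to 6.42 CPM in the 4 samples after IgE. After IgE DNP it lay at 20.5 and 28.1 CPM in PEP+/+ and 23.8 and 26.1 CPM in PEP-/- cells. Its log2 fold change was 1.97 ± 0.16, 3.93-fold (edgeR adjusted p = 1.40e-05). Tnfsf9 shares 192 exon bases with Gm11110 on the opposite strand, and the strand setting of the counting is not given in the sources used here, so reads of the 2 genes may not be told apart there.

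Tnfrsf1b, the gene of TNF receptor type 2, was the other receptor that rose. Its values after IgE were 33.4 and 18.2 CPM in PEP+/+ and 40.1 and 25.8 CPM in PEP-/- cells. After IgE DNP they were 113 and 80.7 CPM and 118 and 116 CPM. The ranges of the treatments lay apart. The log2 fold change was 1.87 ± 0.25, 3.64-fold (edgeR adjusted p = 0.00054). Within single genotypes this call was the least firm of the 5: in PEP+/+ cells it was lost without IgE replicate 2 or IgE DNP replicate 1, and in PEP-/- cells without replicate 2 of either treatment (adjusted p between 0.0508 and 0.142).

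Tnfsf8, the gene of the CD30 ligand, differed between the replicates of a condition as well as between treatments. It lay at 63.3 and 37.0 CPM (PEP+/+) and 70.5 and 35.95 CPM (PEP-/-) after IgE, and at 121 and 62.6 CPM and 101 and 55.5 CPM after IgE DNP. The treatments overlapped, but within each genotype and replicate number the DNP sample was 1.43 to 1.91 times the IgE sample. The log2 difference was 0.71 ± 0.37 with an adjusted p of 0.251. With the replicate block it was 0.71 ± 0.12 and passed (edgeR adjusted p = 0.000394), in a fit that called 18.6% of all genes higher.

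The remaining genes were rare. Ltb lay between 0.189 and 1.54 CPM and Tnfrsf4 between 0.469 and 3.94 CPM in all 16 samples. DNP moved Ltb by -0.32 ± 0.57 (95% interval -1.58 to 0.93) and Tnfrsf4 by -0.14 ± 0.85 (-2.00 to 1.73) on the log2 scale. These intervals still hold a several-fold fall of Ltb and a several-fold change of Tnfrsf4 in either direction. Lta had 0 to 4 reads and Tnfsf11 0 to 5 reads in a sample. For both, no difference was detectable at this depth.

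**Figure D2:**
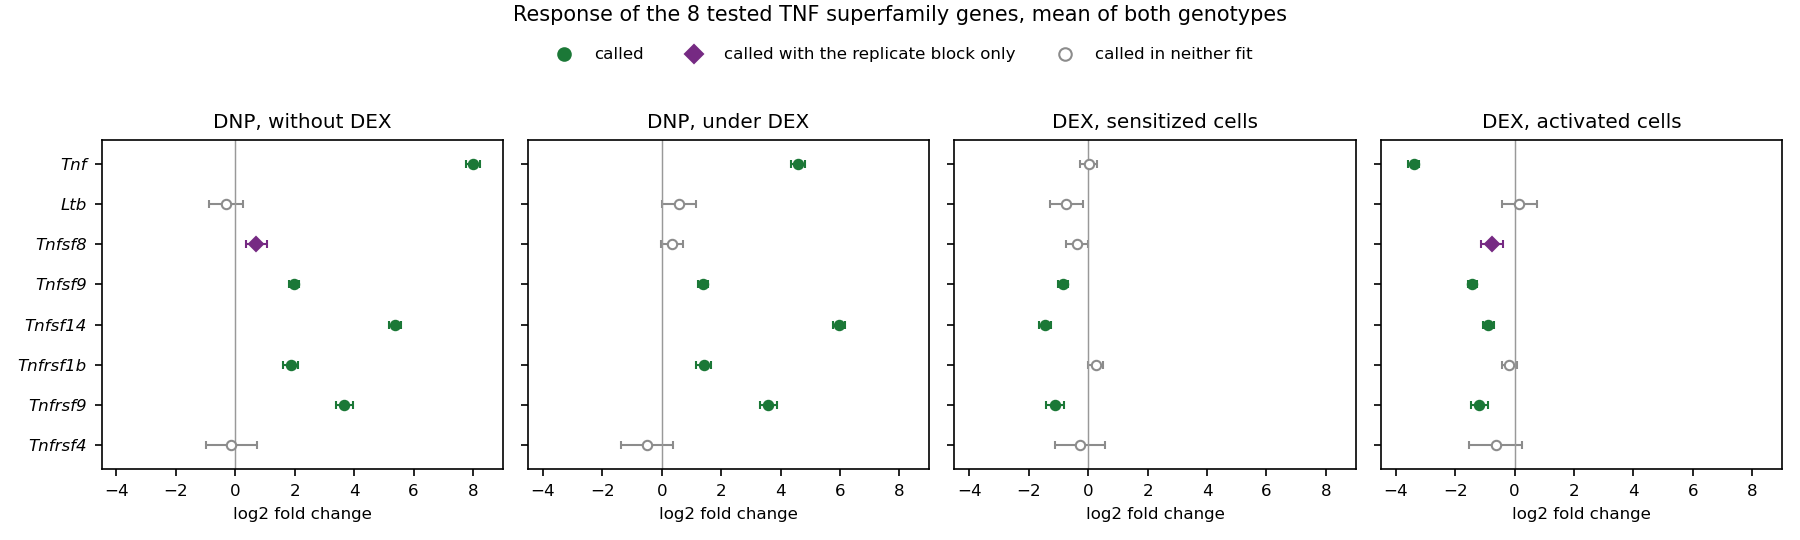
Log2 fold change with its standard error for the 8 genes that passed the filter, for DNP without and under DEX and for DEX in sensitized and in activated cells, averaged over genotypes. Filled circles passed the test, diamonds passed only with the replicate block, and open circles passed in neither fit. Tnf stands at 7.99 for DNP and at -3.39 for DEX in activated cells, and near 0 for DEX in sensitized cells.

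DEX lowered 4 of the 10 genes in activated cells, and Tnf the most. IgE DNP DEX was compared with IgE DNP, so this comparison shares its IgE DNP samples with the DNP comparison. In it 4.99% of all tested genes were called lower and 5.67% higher, and the median log2 difference was -0.81 over the 8 tested genes of the family and -0.01 over all genes. Tnf with both agents lay at 25.9 and 33.5 CPM in PEP+/+ and at 17.8 and 28.6 CPM in PEP-/- cells. All 4 values lay below the lowest value after IgE DNP. The log2 difference was -3.39 ± 0.19 (edgeR adjusted p = 2.63e-06), a level 10.5 times lower.

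The CD137 pair and Tnfsf14 fell less. Tnfsf9 had 8.98 and 8.12 CPM (PEP+/+) and 9.15 and 10.7 CPM (PEP-/-) with both agents, which left 28.9 to 43.8% of the IgE DNP level. Its log2 difference was -1.42 ± 0.16 (edgeR adjusted p = 0.000238). Tnfrsf9 kept 41.2 to 46.7% of its level, with 39.7 and 56.8 CPM (PEP+/+) and 30.03 and 60.7 CPM (PEP-/-), and differed by -1.18 ± 0.28 (edgeR adjusted p = 0.0226). Tnfsf14 kept 48.6 to 58.4%, with 662 and 806 CPM (PEP+/+) and 696 and 1023 CPM (PEP-/-), and differed by -0.88 ± 0.19 (edgeR adjusted p = 0.0145). The calls of Tnfrsf9 and Tnfsf14 were lost without IgE DNP replicate 2 or IgE DNP DEX replicate 1 of either genotype (adjusted p between 0.0567 and 0.0990) and passed with the replicate block (0.000129 and 0.000404).

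Tnfrsf1b kept 71.1 to 99.4% of its level with DEX. Its log2 difference was -0.19 ± 0.25 and did not pass, with a 95% interval from -0.74 to 0.37. Tnfsf8 kept 42.9 to 77.0%, with 51.8 and 41.7 CPM (PEP+/+) and 77.7 and 31.4 CPM (PEP-/-). Its log2 difference of -0.75 ± 0.37 did not pass (adjusted p = 0.258), and that of -0.73 ± 0.12 with the replicate block did (edgeR adjusted p = 0.000481, in a fit that called 17.4% of all genes lower and 15.9% higher). Within a single genotype, Tnf and Tnfsf9 were called lower in both PEP+/+ and PEP-/- cells, where 1.05 and 1.19% of all genes were. With the replicate block the number was 5 in each genotype, with Tnfsf8, Tnfsf14 and Tnfrsf9 added, against 9.76 and 9.33% of all genes. Without the block, the Tnfsf9 call was lost without 1 of the 4 samples compared in PEP+/+ and without 3 of the 4 in PEP-/- cells. Its log2 difference ran from -1.69 to -1.23 and from -1.45 to -1.22 over samples left out.

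In sensitized cells without DNP, a comparison that shares its IgE samples with the DNP comparison, DEX lowered Tnfsf14, Tnfrsf9 and Tnfsf9, 3 of the 10 genes, where 3.98% of all tested genes were called lower and 5.4% higher. Tnfsf14 lay at 16.8 and 12.9 CPM (PEP+/+) and 12.5 and 9.56 CPM (PEP-/-), and its log2 difference from IgE was -1.45 ± 0.20 (edgeR adjusted p = 0.000822). Tnfrsf9 lay at 5.15 and 3.74 CPM and 3.79 and 2.95 CPM, and differed by -1.11 ± 0.31 (edgeR adjusted p = 0.0429), a call lost without any 1 of the 8 samples compared (adjusted p between 0.0626 and 0.156) and kept with the replicate block (0.00259). Tnfsf9 lay at 2.93 and 3.91 CPM and 3.73 and 3.26 CPM, and differed by -0.85 ± 0.17 (edgeR adjusted p = 0.00777). Each of these 3 genes was lower in all 4 samples with DEX than in any sample with IgE alone. These are the samples of the test itself, so this adds no support to the calls. The share of all genes that separate in this way was not counted. Tnf had 1.24 and 2.02 CPM (PEP+/+) and 0.570 and 0.915 CPM (PEP-/-), from 9 to 48 reads. Its log2 difference of 0.01 ± 0.28 had a 95% interval from -0.59 to 0.62.

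DNP raised the same 5 genes under DEX as without it, where 7.19% of all tested genes were called higher. The log2 fold changes of IgE DNP DEX over IgE DEX were 5.95 ± 0.20 for Tnfsf14, 4.59 ± 0.24 for Tnf, 3.59 ± 0.30 for Tnfrsf9, 1.42 ± 0.25 for Tnfrsf1b and 1.40 ± 0.17 for Tnfsf9. Tnf rose 16.6 to 31.2 times within a genotype and replicate number under DEX, and Tnfsf14 39.4 to 107 times. The difference between the responses was tested as a DNP by DEX interaction. It passed for Tnf, by -3.41 ± 0.34 on the log2 scale (edgeR adjusted p = 0.00278), and for none of the other 7 genes tested, in a comparison that called 0.331% of all tested genes. For Tnfsf14 the interaction was 0.57 ± 0.28 (95% interval -0.03 to 1.18), for Tnfrsf9 -0.07 ± 0.42 (-0.99 to 0.84), and for Tnfsf9 -0.57 ± 0.23 (-1.08 to -0.06), which did not pass after adjustment.

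Tnf was lower without PEP. Over the 4 treatments the log2 difference of PEP-/- from PEP+/+ was -1.08 ± 0.17 (95% interval -1.45 to -0.71), a level 2.11 times lower (edgeR adjusted p = 0.0123). It was the only 1 of the 10 genes called, where 1.16% of all tested genes were called lower and 0.428% higher. The PEP-/- sample was the lower in 8 of 8 pairs with the same treatment and replicate number. With IgE alone it had 50.7 and 31.1% of the PEP+/+ level, with DNP 36.5 and 39.9%, with DEX 46.1 and 45.3%, and with both agents 68.5 and 85.3%. The 2 genotypes did not overlap in the first 3 treatments, and they overlapped with both agents. The fit treats the 16 samples as independent. Whether the 4 treatments of a genotype and replicate number shared a culture is not given in the sources used here. If they did, the interval, the p-value and the 8 pairs rest on fewer independent cultures than samples. The same limit holds for the genotype averages of the other genes below. The macrophage and eosinophil marker sums had higher medians in PEP-/- samples, and their part in the Tnf difference was not tested. The order of the 8 conditions by mean CPM began with PEP+/+ IgE DNP (446), PEP-/- IgE DNP (170.5), PEP+/+ IgE DNP DEX (29.7) and PEP-/- IgE DNP DEX (23.2).

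Within single treatments the genotype difference of Tnf was less well resolved. It was -1.34 ± 0.40 with IgE alone, -1.39 ± 0.27 with DNP, -1.22 ± 0.39 with DEX and -0.36 ± 0.28 with both agents, and none of these passed (adjusted p from 0.317 to 1). In those 4 comparisons the test called 1 gene each over all genes (0.00752%) and 0 of the 10. At an unadjusted p under 0.05, 1 of the 8 tested genes passed with IgE alone, with DNP and with DEX, and 0 with both agents. After IgE DNP, Tnf passed with the replicate block (-1.39 ± 0.15, edgeR adjusted p = 0.00129, where 1.56% of all genes were called lower), in DESeq2 (-1.37, adjusted p = 0.00295) and without the filter on low counts (-1.35, edgeR adjusted p = 0.0037).

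Whether the genotypes responded differently was tested directly. The genotype by DNP interaction of Tnf was -0.04 ± 0.48 (95% interval -1.09 to 1.01). DEX left 6.06 and 7.22% of the IgE DNP level of Tnf in PEP+/+ cells and 11.4 and 15.4% in PEP-/- cells. The corresponding genotype by DEX interaction was 1.02 ± 0.38 on the log2 scale (95% interval 0.18 to 1.86), with an unadjusted edgeR p of 0.0220, and it did not pass adjustment over all genes (adjusted p = 1, and 0.999 with the replicate block). Neither interaction called any gene of the 10, with edgeR, the replicate block or DESeq2, and at an unadjusted p under 0.05 edgeR passed 0 and 1 of the 8 tested.

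Among the other genes, Tnfrsf1b was higher in the PEP-/- sample in 8 of 8 pairs, at 104 to 162% of the PEP+/+ level. Its log2 difference of 0.33 ± 0.18 did not pass (adjusted p = 0.468), and with the replicate block that of 0.33 ± 0.09 did (edgeR adjusted p = 0.0191). Ltb was higher in PEP-/- in 7 of 8 pairs, from 2 to 30 reads per sample. It differed by 0.77 ± 0.41 (adjusted p = 0.438), and by 0.84 ± 0.26 with the block (edgeR adjusted p = 0.0352). The blocked fit called 7.72% of all genes higher and 9.64% lower. Tnfsf14 was lower in PEP-/- in 4 of 4 pairs without DNP (69.3 to 88.05% of PEP+/+) and higher in 4 of 4 with DNP (105 to 127%), but its genotype by DNP interaction of 0.46 ± 0.39 (95% interval -0.40 to 1.31) did not pass. Tnfsf8 and Tnfrsf4 were lower in PEP-/- in 4 of 8 pairs, Tnfsf9 in 3 and Tnfrsf9 in 7. The genotype differences of these 5 over all treatments lay between -0.21 and 0.08 and did not pass in either fit.

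**Figure D3:**
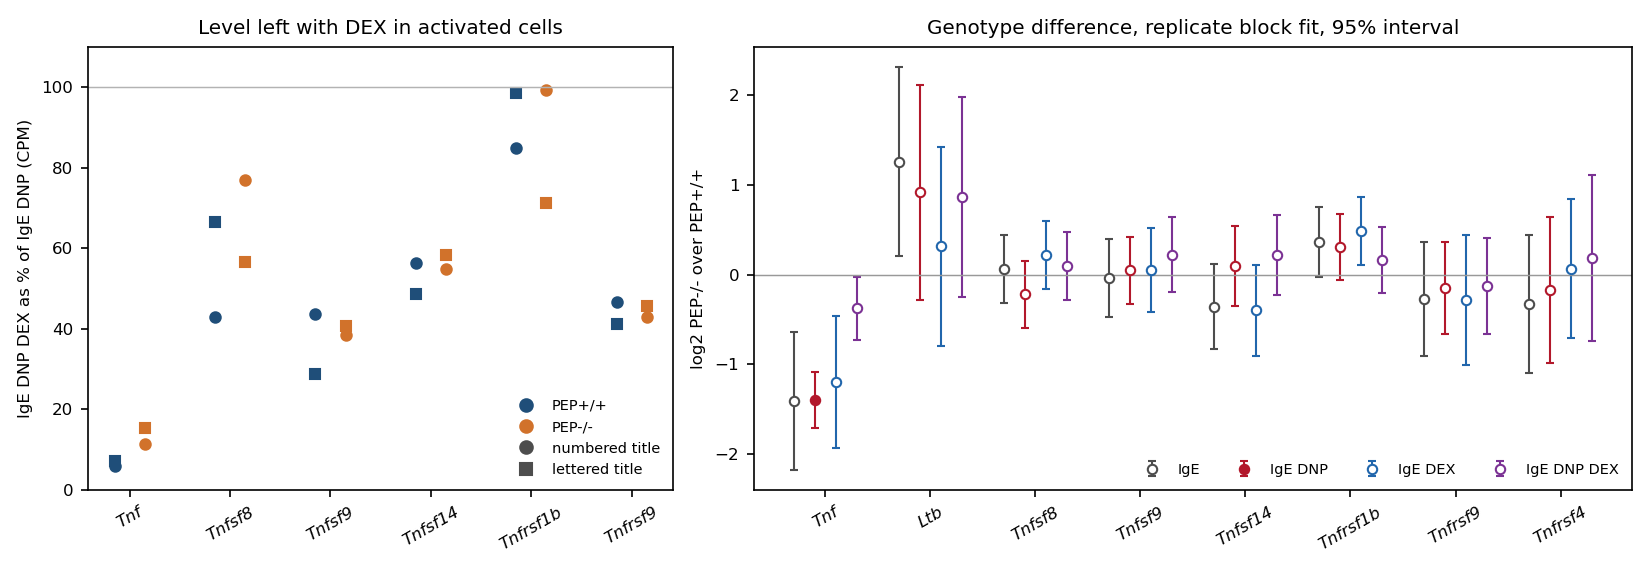
Left, the level left with DEX in activated cells, as IgE DNP DEX in percent of IgE DNP (CPM) for each genotype and replicate number. Right, the log2 difference of PEP-/- from PEP+/+ in each treatment in the fit with the replicate block, with its 95% interval and filled points where it passed. Tnf has the lowest shares, 6.06 to 15.4%, and is the only gene with a filled point, at -1.39 after IgE DNP.

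Few other ligands of the family were expressed. Of 11 further ligand genes, 3 passed the filter on low counts. DNP raised Tnfsf4, the gene of the OX40 ligand, by 1.18 ± 0.25 (edgeR adjusted p = 0.00751) and Tnfsf10, the gene of TRAIL, by 1.12 ± 0.32 (0.034). After IgE alone Tnfsf10 lay at 25.5 to 64.65 CPM, a range that overlapped those of Tnfsf14 and Tnfsf8. Unlike the 4 ligands and receptors that DEX lowered, Tnfsf4 rose with DEX, by 1.59 ± 0.25 in sensitized cells (edgeR adjusted p = 0.00196) and by 1.29 ± 0.24 in activated cells (0.00607). It reached 24.4 to 30.3 CPM with both agents, against 2.69 to 6.32 CPM after IgE, while its receptor gene Tnfrsf4 stayed under 4 CPM.

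Of 25 further receptor genes, 14 passed the filter, and DNP raised 4 and lowered 3 of them (median log2 fold change -0.14), or 5 and 6 with the replicate block. Of all tested genes, 9.07% were called higher and 7.58% lower there, or 18.6 and 19.3% with the block. Tnfrsf12a, the gene of the TWEAK receptor, rose by 3.49 ± 0.20 (edgeR adjusted p = 1.19e-06), Eda2r by 2.27 ± 0.38, the death receptor gene Fas by 1.45 ± 0.38 and Tnfrsf10b by 1.36 ± 0.26. Tnfrsf21 fell by 0.93, Relt by 0.64 and Tnfrsf13b by 0.59. DEX raised Relt 2.82-fold and Tnfrsf11a, the gene of the RANKL receptor (3.68 ± 0.88, from 0 to 0.275 CPM after IgE DNP to 1.04 to 1.80 CPM), in activated cells, where the replicate block called 4 receptors higher and 2 lower. That comparison called 5.67% of all tested genes higher and 4.99% lower, or 15.9 and 17.4% with the block. Tnfrsf1a, the gene of TNF receptor type 1, was chosen for mention after its values were seen. It had 0 to 3 reads in a sample, against 210 to 2100 reads for Tnfrsf1b. In the genotype average 0 of the 3 ligands and 0 of the 14 receptors passed edgeR's test, 0 and 2 had an unadjusted p under 0.05, and DESeq2 called 0 and 1. The replicate block called 0 ligands and 2 receptors there, Tnfrsf12a (-0.62, edgeR adjusted p = 0.00233) and Ltbr, a receptor of LIGHT and the lymphotoxins (-0.43, 0.00415), both lower in PEP-/-. Over all tested genes edgeR called 1.59% in that average, and 17.4% with the block.

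**Figure D4:**
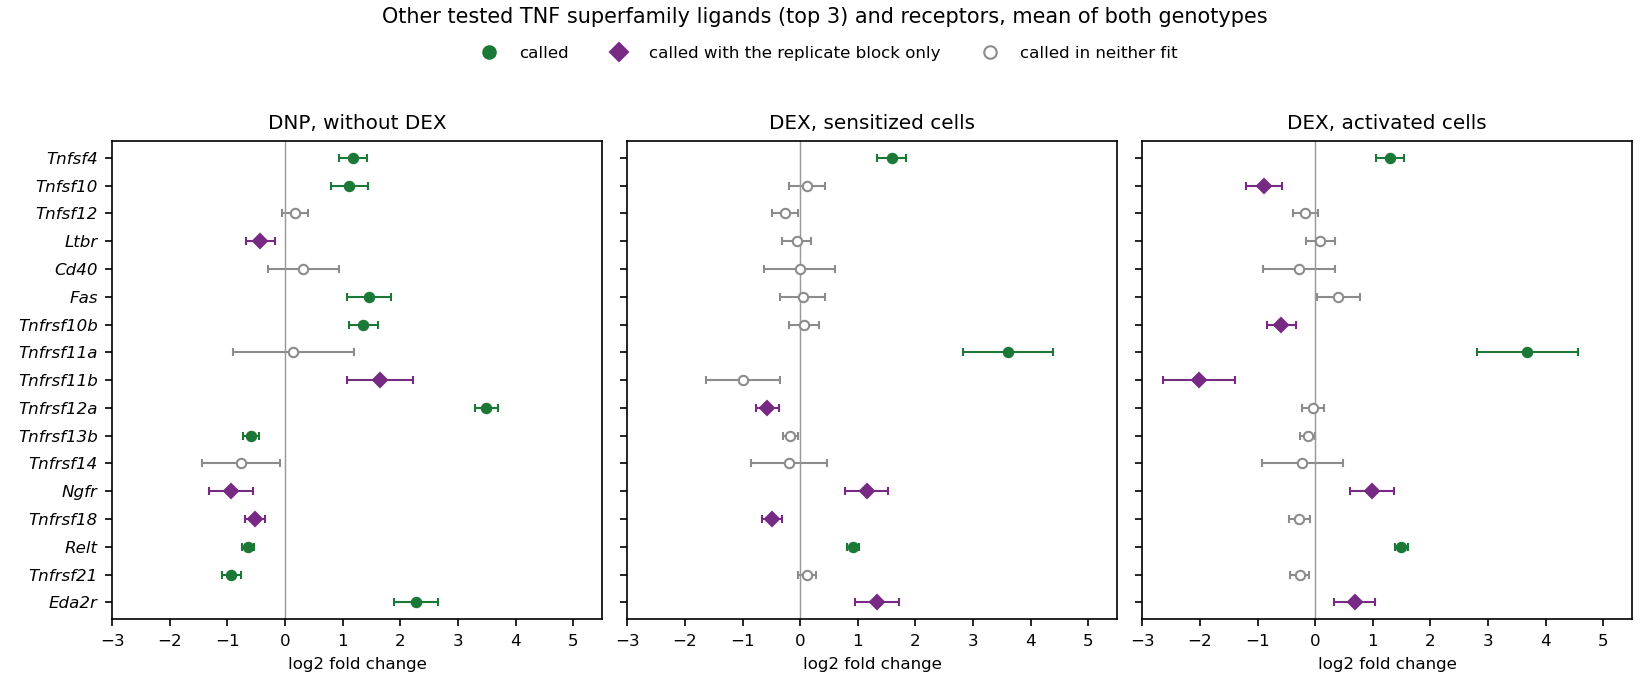
Log2 fold change with its standard error for the 3 further ligands and 14 further receptors that passed the filter, for DNP and for DEX in sensitized and activated cells, averaged over genotypes, with the same symbols as for the 8 genes above. Tnfrsf12a is the highest for DNP at 3.49, and Tnfsf4 is to the right of 0 in every panel. Tnfsf12 shares exon bases with Tnfsfm13 and Tnfrsf18 with the antisense gene Gm16008, so their counts are uncertain.

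The adaptors and NF-kB genes that act below these receptors moved with DNP as well. Of 38 such genes, all of which passed the filter, DNP raised 18 and lowered 2, with a median log2 fold change of 0.72 against -0.0007 for all genes. The replicate block called 22 higher and 4 lower. Over all tested genes the shares were 9.07% higher and 7.58% lower, or 18.6 and 19.3% with the block. The largest rises were in Tnip3 (8.02 ± 0.62), Traf1 (4.29 ± 0.41), Map3k8 (3.78 ± 0.22), Nfkbia (3.76 ± 0.28) and Tnfaip3 (3.22 ± 0.19). Nfkbia and Tnfaip3 encode inhibitors of the pathway, Traf1 an adaptor and Map3k8 a kinase. Tab1 and Fadd fell by 1.03 and 0.53. In activated cells DEX raised Birc3 (1.44 ± 0.19) and lowered Tnip3 (-2.93 ± 0.44), and the other 36 genes did not pass (with the replicate block, 3 rose and 15 fell). The shares of all tested genes there were 5.67% higher and 4.99% lower, or 15.9 and 17.4% with the block. In sensitized cells DEX raised Nfkbia by 2.96 ± 0.28, Tnfaip3 by 1.47 ± 0.19 and Map3k8 by 1.42 ± 0.22, with 6 genes called higher and 1 lower (7 and 8 with the block). Here 5.4% of all tested genes were called higher and 3.98% lower, or 12.9 and 13.8% with the block. In the genotype average 0 of the 38 passed edgeR's test, 1 had an unadjusted p under 0.05, DESeq2 called 1 and the replicate block 3. Of all tested genes edgeR called 1.59% there, and 17.4% with the block.

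**Figure D5:**
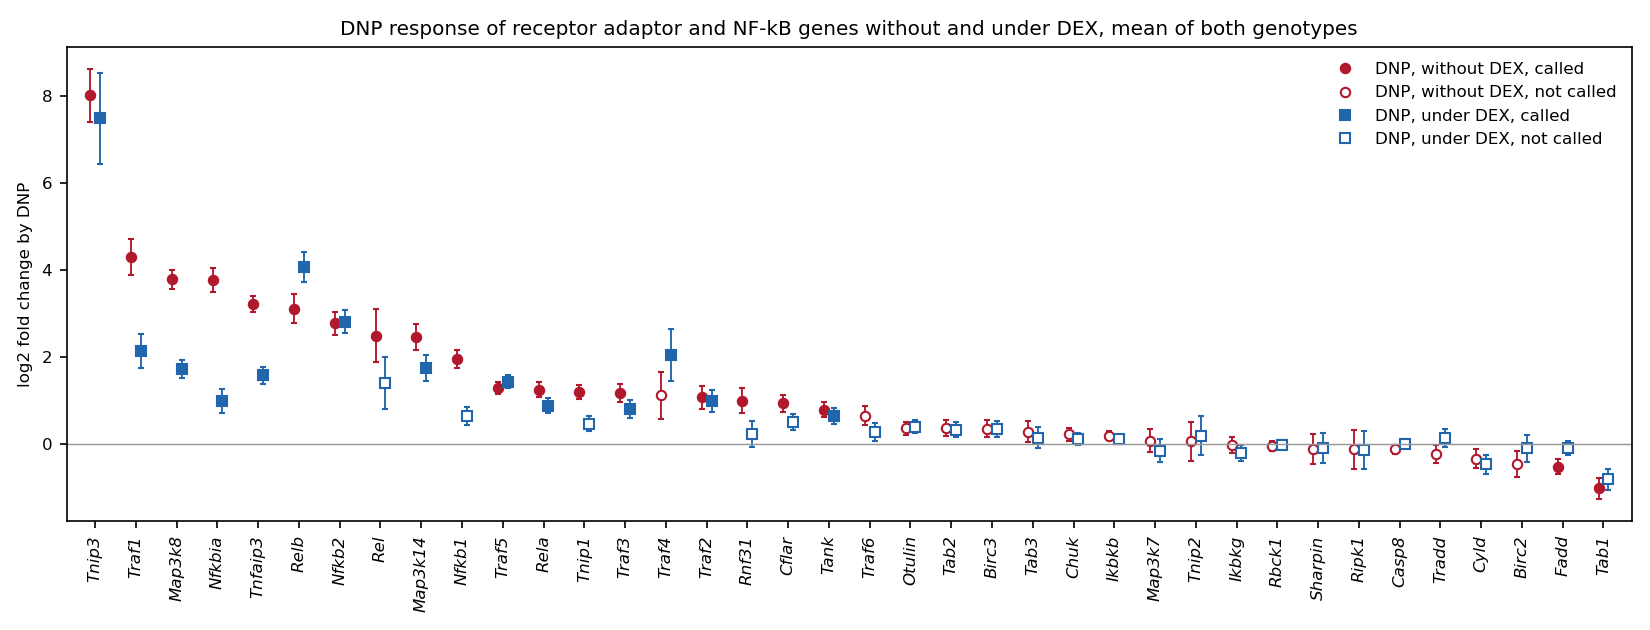
Log2 fold change by DNP with its standard error for the 38 adaptor and NF-kB genes, without DEX (circles) and under DEX (squares), averaged over genotypes and ordered by the response without DEX. Filled symbols passed the test, 20 without DEX and 14 under it, where 16.7 and 12.6% of all tested genes did. Nfkbia stands at 3.76 without and 0.98 under DEX.

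Genes that act in the release of TNF from the membrane or in the stability of its message were also read. Of 10 such genes, with a median log2 fold change of 1.17, DNP raised 4 and lowered 0: Rhbdf2 (3.01 ± 0.22), whose product guides the TNF-cleaving protease ADAM17, and Zc3h12a (2.20 ± 0.20), Rc3h1 (1.42 ± 0.21) and Zfp36 (1.41 ± 0.27), whose products destabilize TNF mRNA. With the replicate block 8 rose and 1 fell, Adam17 itself (-0.29, edgeR adjusted p = 0.030). The DNP comparison called 9.07% of all tested genes higher and 7.58% lower, or 18.6 and 19.3% with the block. In activated cells DEX raised Zfp36l2 (2.05 ± 0.15) and Zfp36 (0.99 ± 0.26), and the block called 3 higher and 2 lower. Among all tested genes 5.67% were called higher and 4.99% lower, or 15.9 and 17.4% with the block. Zfp36 was rare, at 10.4 to 17.4 CPM with both agents against 5.96 to 9.41 CPM after IgE DNP, and those 2 groups did not overlap. In the genotype average 0 of the 10 passed edgeR's test, 2 had an unadjusted p under 0.05, DESeq2 called 0 and the replicate block 1 (Elavl1, -0.20). Of all tested genes edgeR called 1.59% there, and 17.4% with the block.

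Tnf lies between Lta and Ltb on chromosome 17 (GRCm38, Lta at 35203165 to 35205351, Tnf at 35199381 to 35202007 and Ltb at 35194439 to 35196320). Neither neighbour shared the rise of Tnf: Lta stayed at 0 to 4 reads and Ltb did not pass. Of 7 further genes beside them, 6 passed the filter and 0 were called in the DNP comparison, 0 had an unadjusted p under 0.05, DESeq2 called 0 and the replicate block 2. Over all tested genes edgeR called 16.7% in either direction, and 37.9% with the block, so counts this low are not particular to these 6 genes. Tnfsf9 and Tnfsf14 lie near each other on the same chromosome, at 57105325 to 57107757 and 57189492 to 57194177, and both rose with DNP and fell with DEX.

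Genes with the most similar profiles over the 16 samples were found by Pearson's r of log2 CPM, which can follow treatment or replicate number. For Tnf these were the chemokine genes Ccl4 (0.98) and Ccl7 (0.98) and Olr1 (0.98). Those of Tnfsf14 were Ehd1, Rhbdf2 and Hbegf (0.99 each), and those of Tnfrsf9 were Bcl3, Nfkb2 and Hbegf (0.99 each). Tnfsf9 was most like Pxdc1, Nabp1 and Orai1 (0.97 each), and Tnfrsf1b most like Itpkb (0.99), Ets1 and Gna13 (0.98 each). The nearest profiles to Tnfsf8 were Rab27a (0.97), Med14 (0.96) and Tdg (0.95), and to Tnfrsf4 Gm4419 (0.96), Cbr1 and Pgghg (0.95 each). Tnfsf8 and Tnfrsf4 differed between numbered and lettered samples in 8 of 8 conditions. Neither passed a treatment comparison without the replicate block, so their r need not mark a shared treatment response. Ltb had the least similar neighbours, Ttc12 (0.89), Xaf1 and Rbms2 (0.88 each).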

How the data were processed

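RNA of 16 mouse BMMC samples was sequenced (TruSeq stranded mRNA libraries). The authors aligned reads with TopHat2 to GRCm38 and counted reads per Ensembl gene with HTSeq, and the deposited files hold these raw counts. The study's methods name DESeq2 for differential expression. Here samples were grouped by GEO's labels and all genes were fitted with edgeR 4.0.16 (R 4.3.3): TMM scaling, filterByExpr (13305 of 39179 genes kept), 1 mean for each of 8 conditions, quasi-likelihood F-tests with 8 residual degrees of freedom, and Benjamini-Hochberg adjustment over all tested genes at 0.05. HTSeq's summary lines were left out. CPM are counts per 1000000 counted reads after TMM scaling, and counting error is smallest for the deeper samples and abundant genes. Gene names, exon lengths and overlaps came from GENCODE M21 (GRCm38), and promoters from RefSeq (GRCm38.p6). The 10 genes, the lists and the tests were chosen with earlier results of these data known.

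Replicate numbers were checked for pairing. Over 28 pairs of conditions, same-numbered samples deviated from their condition means with r of 0.453 to 0.799 (median 0.718), all over 0.1, so a fit with the replicate number as a block was made as an alternative. The pairing comes from the replicate numbers in the labels, which do not say what a number marks. Other alternatives were DESeq2 1.42.0, its size factors in edgeR, no filter on low counts, a stricter filter (10 or more counts in each sample), a fit to only those conditions a comparison uses, and leaving out each sample. The edgeR fit without the block was tested on simulated counts, for the averaged DNP and genotype comparisons only. Those counts held no difference between replicate numbers, and the blocked fit and DESeq2 were not tested in this way. Beyond the 10 genes, a list's genes were named if among the 5 largest changes in a direction called in the averaged DNP or activated-cell DEX comparison, or if called in the genotype average. Ptpn22, Tsc22d3 and Fkbp5 were named as checks, and 3 profile neighbours for each tested gene. Ltbr, Adam17 and Elavl1 were named after their values were seen.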

Additional observations from a re-analysis of the deposited data

Results flagged for a closer look

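The DNP by DEX interaction of Tnf, averaged over genotypes, was -3.41 on the log2 scale (edgeR adjusted p = 0.00278): the response of Tnf to DNP differed between cells with and without DEX, at 7.99 without and 4.59 under DEX. Within a genotype and replicate number the rise was 190 to 327 times without DEX and 16.6 to 31.2 times under it. The interaction kept its direction and its call with each of the 16 samples left out in turn, where the value ran from -3.59 to -3.20.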

How the results depend on the processing

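The averaged DNP comparison, alone and under DEX, called 5 of the 10 genes as reported and with any 1 of the compared samples left out. DESeq2 size factors moved no median by more than 0.0179 (log2). With only the conditions compared, the number called fell from 5 to 3 for DNP in PEP+/+, from 4 to 2 for DEX in activated cells, from 2 to 1 in activated PEP+/+ and from 2 to 0 in activated PEP-/- cells. Requiring at least 10 counts in every sample drops Tnf from testing and left 1, 1, 0 and 0 genes for DEX in activated PEP+/+, activated PEP-/-, the DNP by DEX interaction and the genotype average, against 2, 2, 1 and 1. Without the filter on low counts, activated PEP+/+ gave 4 genes and the genotype difference after IgE DNP 1 against 0, as did DESeq2 and the replicate block. With the replicate block, DEX gave 5 genes in activated PEP+/+ and 5 in activated PEP-/- cells, and the genotype average 3. Beside the calls given with their blocked values, the block added Tnfsf8 to DNP in each genotype and changed no other call of the 10 genes. With 1 sample left out the number ran from 2 to 4 for DEX in activated cells, 1 to 2 in activated PEP+/+ (1 without IgE DNP replicate 2) and 1 to 2 in activated PEP-/- cells (1 without replicate 2 of IgE DNP or either replicate of IgE DNP DEX). A condition left with 1 sample is assumed there to vary like the others. The uncalled Tnf values near 0 changed sign: genotype by DNP was 0.0138 with the block and -0.33 to 0.21 over samples left out, and DEX in sensitized cells -0.19 to 0.20. Over all genes, calls without and with the block were 2216 and 5042 (DNP), 1418 and 4429 (DEX in activated cells), 1247 and 3548 (DEX in sensitized cells), 1678 and 5007 (DNP under DEX), 44 and 209 (DNP by DEX) and 212 and 2310 (genotype). The last 2 gave 107 and 472 without the filter and 101 and 697 in DESeq2. Only the conditions compared gave 805 for DEX in activated cells and 953 for DNP under DEX. The cause of these differences was not tested. Depth limits Lta, Tnfsf11, Ltb, Tnfrsf4 and Tnf without DNP.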
